A study of Mus musculus with 10 samples.

Results

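The cerebellins, the C1q-like proteins, the adhesion receptor Bai3 (gene *Adgrb3*) and the delta-type glutamate receptor GluD1 (gene *Grid1*) were examined as a group of synapse organisers in cerebellar RNA. The 9 genes *Cbln1*, *Cbln2*, *Cbln3*, *Cbln4*, *C1ql1*, *C1ql2*, *C1ql3*, *Adgrb3* and *Grid1* were taken by symbol from the 53447 genes listed in each library, and the rule that picks them uses no measured value. The study sequenced cerebellar RNA at postnatal day 21 (P21) from 5 WT mice and 5 *Dscam* del17/del17 mice, with 1 library per mouse, and asked whether loss of the adhesion molecule DSCAM changed the RNA of genes that act in synapse formation. WT mice, labelled Control, were littermates without the mutation. The mutants, labelled DscamKO, were homozygous for a spontaneous loss-of-function deletion in exon 17 of *Dscam*, which is present in every cell of the body. Both genotypes came from a line crossed with BALB/c (so labelled, BALB/cCrSlc in the study's methods). The methods state that males and females were used in the study as a whole, and the sex behind each library is not in the labels.

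Cerebellins and C1q-like proteins are secreted relatives of the complement protein C1q that carry a globular C1q domain and bridge the membranes of a synapse. Cerebellins released by granule cells bind presynaptic neurexins and postsynaptic delta-type receptors, and in this way hold parallel fibre (PF) synapses on Purkinje cells together. C1q-like proteins bind Bai3, and C1QL1 is made by neurons of the inferior olive, whose climbing fibres (CFs) innervate Purkinje cells while their cell bodies lie outside the cerebellum.

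The values are TPM (relative transcript abundance, scaled for transcript length and library), so levels can be set side by side between genes. TPM keep no number of reads, so the depth behind each value is unknown. Differences are mutant minus WT on the scale log2(TPM + 0.1), which draws the differences of weakly expressed genes toward 0. They were tested with limma over the 17168 genes that reached 0.5 TPM in at least 5 of the 10 libraries, with Benjamini-Hochberg adjusted p-values and a threshold of 0.05. Each mean stands with its SD, over 5 mice per genotype.

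*Dscam* itself averaged 7.72 ± 1.15 TPM (SD, n = 5) over WT mice and 4.37 ± 0.979 TPM (SD, n = 5) over mutants, and the highest mutant library (5.42 TPM) lay below the lowest WT library (6.29 TPM). Listed TPM added up to between 684771 and 838532 per WT library and between 775148 and 805869 per mutant library. WT replicate 5 had the lowest sum, the fewest genes at 0.5 TPM (15623, against 17101 to 17763 in the other libraries) and the lowest mitochondrial mRNA (15206 TPM, against 23124 to 44973 TPM). It was the lowest of the 10 libraries for 38.8% of the 17168 genes and for 5 of the 8 members tested. Values without this library are therefore given beside the results that rest on it. The tissue was marked as cerebellum by granule and Purkinje cell genes in every library, with 3270 to 4861 TPM in WT libraries and 3815 to 3985 TPM in mutant libraries for 12 granule cell markers, and 8023 to 9195 TPM and 8177 to 9634 TPM for 16 Purkinje cell markers. In whole tissue, fewer cells of a type and less RNA per cell cannot be told apart.

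The 3 C1q-like genes resemble each other in sequence, and the stretch printed here is shown because it holds the longest run of identical bases in the transcripts of *C1ql1* and *C1ql3*, the pair whose ratio is given further on. The coordinates are GRCm38, each stretch is coding sequence of exon 1 printed 5′ to 3′ along the transcript, and capitals mark the longest run identical to *C1ql1* (in *C1ql1* itself, to *C1ql3*).
*C1ql1*, chr11:102946330-102946435, minus strand: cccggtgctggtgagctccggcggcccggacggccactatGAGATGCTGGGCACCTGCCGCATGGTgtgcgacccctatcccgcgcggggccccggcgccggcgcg
*C1ql3*, chr2:13010716-13010821, minus strand: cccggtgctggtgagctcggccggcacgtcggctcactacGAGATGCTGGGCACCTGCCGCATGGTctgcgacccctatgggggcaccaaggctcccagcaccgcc
*C1ql2*, chr1:120341147-120341250, plus strand: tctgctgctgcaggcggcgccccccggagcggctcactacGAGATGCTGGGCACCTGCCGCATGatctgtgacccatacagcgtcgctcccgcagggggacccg

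The identical run was 26 bases between *C1ql1* and *C1ql3* and 24 bases between *C1ql1* and *C1ql2*. Over the first 104 bases shown, *C1ql1* and *C1ql3* had 75 bases in common, *C1ql2* and *C1ql3* had 69, and *C1ql1* and *C1ql2* had 61. Elsewhere *C1ql2* and *C1ql3* shared a run of 38 bases, the longest found between any C1q-like genes. Among the cerebellins the longest runs were 13 to 21 bases. All these runs were far shorter than the 151 sequencing cycles. Coding sequences were 66.8% to 73.5% identical among the C1q-like genes and 55.3% to 66.5% among the cerebellins in global alignments.

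None of the 9 genes passed the threshold between genotypes. Of all 17168 genes, 0 (0%) were called by limma, and 953 (5.55%) had an unadjusted p under 0.05, with 2.29% higher and 3.26% lower in the mutant. Of the 9 genes, 8 reached the filter on low values, and *Cbln2* did not. *Cbln4* reached it through 1 WT and 4 mutant libraries. Of the 8, 3 had log2 fold changes above 0 (*Cbln4*, *C1ql3* and *Adgrb3*) and 5 below 0, with a median of -0.07, while 56% of all genes tested lay above 0, with a median of 0.05. Without WT replicate 5, 4 of the 8 lay above 0 with a median of 0.06, and 7546 of all 17168 genes did, with a median of -0.04, so both medians changed sign. *C1ql3* alone among the 8 had an unadjusted limma p under 0.05. By the exact permutation test, *C1ql3* and *Cbln2* of the 9 had a p under 0.05, against 6.02% of the genes past the filter and 4.61% of the 27106 genes above 0 in at least 1 library. The last set includes genes above 0 in too few libraries to reach such a p. In none of the 9 did the genotypes separate without overlap, which 1.22% of all genes tested did.

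**Figure D1:**
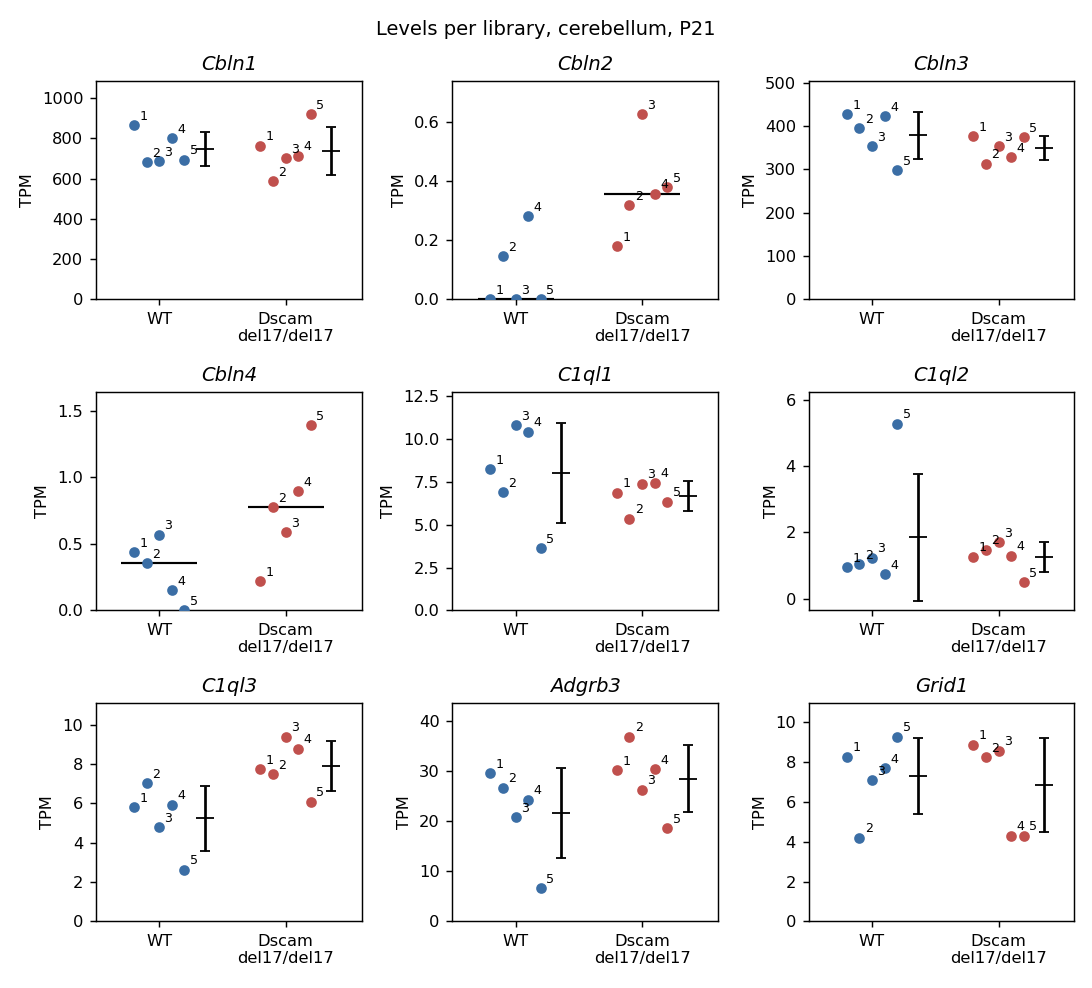
TPM of the 9 genes in each library (vertical axes, TPM on linear scales from 0, with the *C1ql2* axis extended below 0 to hold its error bar) for WT and *Dscam* del17/del17 cerebella. Each point is 1 mouse with its replicate number, black marks with bars are the mean ± SD of 5 mice, and black lines in the *Cbln2* and *Cbln4* panels are medians, since libraries there are listed at 0. WT replicate 5 is low for *Adgrb3* (6.61 TPM) and *C1ql3* (2.62 TPM) and high for *C1ql2* (5.27 TPM).

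Among the cerebellins, *Cbln1* was the most abundant (ENSMUSG00000031654, chr8:87468405-87472609, minus strand, 3 exons in its first-numbered transcript). It encodes the cerebellin that joins granule cell axons to Purkinje cell spines. WT libraries 1 to 5 had 866, 681, 685, 802 and 694 TPM, and mutant libraries 1 to 5 had 764, 587, 701, 713 and 920 TPM. Both the highest and the lowest of these values were in mutant mice, so the WT range lay wholly inside the mutant range. WT mice averaged 745 ± 83.7 TPM (SD, n = 5) and mutants 737 ± 121 TPM (SD, n = 5). The log2 fold change was -0.02 (95% interval -0.29 to 0.24, SE 0.12, limma adjusted p = 0.964). *Cbln1* was 74th in WT level among the 13538 protein-coding genes tested, and 17.5% of these genes had a smaller residual SD than its 0.20 (log2). The noncoding gene *Gm2694* overlaps *Cbln1* on the other strand without sharing an exon base, and its level was 134 to 215 TPM in WT libraries and 153 to 168 TPM in mutant libraries.

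*Cbln3* (ENSMUSG00000040380, chr14:55878913-55884392, minus strand, 3 exons in its first-numbered transcript) encodes a granule cell cerebellin that is secreted in complexes with CBLN1. WT libraries had 428, 395, 354, 423 and 298 TPM, and mutant libraries had 376, 313, 354, 328 and 374 TPM. The mutant values lay within the WT range. The means were 379 ± 54.2 TPM (SD, n = 5) and 349 ± 28.0 TPM (SD, n = 5), which gave a log2 fold change of -0.11 (95% interval -0.35 to 0.13, SE 0.11, limma adjusted p = 0.822). Without WT replicate 5, the lowest WT library, the log2 fold change was -0.20.

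*Cbln1* and *Cbln3* made up nearly all cerebellin RNA. *Cbln1* held 66.3 ± 2.46% (SD, n = 5) of the summed TPM of the 4 cerebellins in WT and 67.6 ± 2.23% (SD, n = 5) in the mutant. *Cbln3* held 33.7 ± 2.44% (SD, n = 5) and 32.3 ± 2.25% (SD, n = 5). The ratio of *Cbln3* to *Cbln1* within a library was 0.51 ± 0.055 (SD, n = 5) in WT and 0.48 ± 0.048 (SD, n = 5) in the mutant, with ranges of 0.43 to 0.58 and 0.41 to 0.53. Genotypes overlapped in this ratio, and both lowest ratios were in the replicates numbered 5. Of the 12 granule cell markers, which mark the cells that make both proteins, 4 had log2 fold changes above 0 and 8 below (median -0.08). When WT replicate 5 was left out these were 2 and 10, with a median of -0.16, and with mitochondrial mRNA as a covariate 0 and 12, with a median of -0.23. Their part in the *Cbln1* and *Cbln3* levels was not tested.

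*Cbln2* and *Cbln4* encode cerebellins best known from other brain regions and were near the lower end of what the libraries list. *Cbln2* (ENSMUSG00000024647) was listed at 0 in WT libraries 1, 3 and 5 and at 0.15 and 0.28 TPM in WT libraries 2 and 4. The mutant libraries had 0.18, 0.32, 0.63, 0.36 and 0.38 TPM. *Cbln2* was thus above 0 in each mutant library, and 4 of 5 mutant libraries lay above the highest WT library. The difference in mean log2 value had an exact two-sided permutation p of 0.0159, unadjusted. Of the 11371 genes above 0 in at least 1 library with a mean under 1 TPM, 2.67% had an exact p under 0.05, and 1.64% did so with higher values in the mutant. That set includes genes above 0 in too few libraries to reach such a p, which lowers both shares. The shares therefore do not show how rare the p of *Cbln2* is among genes listed as often. When limma was run without a filter on low values, its adjusted p for *Cbln2* was 0.801. No fold is given, since most WT libraries were listed at 0.

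*Cbln4* (ENSMUSG00000067578, chr2:172036233-172043466, minus strand, 3 exons in its first-numbered transcript) had 0.44, 0.36, 0.57 and 0.15 TPM in WT libraries 1 to 4 and was listed at 0 in WT library 5. Mutant libraries had 0.22, 0.77, 0.59, 0.89 and 1.39 TPM. As for *Cbln2*, 4 of 5 mutant libraries lay above the highest WT library, and mutant replicate 1 lay within the WT range. The fitted log2 difference was 1.22 (95% interval -0.26 to 2.70, SE 0.68, limma adjusted p = 0.779), and the exact permutation p was 0.0794. *Cbln4* reached the filter through 1 WT and 4 mutant libraries, so its entry into the limma test rested mostly on the genotype with the higher values. Without WT replicate 5 the difference was 0.79.

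Markers of the deep cerebellar nuclei, the output neurons of the cerebellum, are given beside *Cbln2* and *Cbln4*. The 6 markers summed to 10.4 to 31.9 TPM (median 20.4) in WT and 31.3 to 50.8 TPM (median 41.5) in the mutant, so the ranges overlapped. Of the 4 that were tested, 0 were called by limma and 2 had an unadjusted p under 0.05. All 4 had log2 fold changes above 0, with a median of 0.87, while with mitochondrial mRNA as a covariate 2 lay above and 2 below 0, with a median of 0.34, and without WT replicate 5 the median was 0.56. Of the 19 markers of brainstem, midbrain and inferior olive, 7 were tested, with 5 above 0, 2 below 0 and 0 called by limma. Their median log2 fold change was 0.82, and 3 had an unadjusted limma p under 0.05. The median was 0.18 with mitochondrial mRNA as a covariate and 0.59 without WT replicate 5. With no filter on low values 16 of the 19 were tested, with a median of 0.35. A filter of 1 TPM in 5 libraries left 4, with 2 above and 2 below 0 and a median of 0.40. Mutant libraries alone could meet the main filter, which favours markers higher in the mutant. The 19 markers summed to 86.4 to 119 TPM in WT libraries and 95.7 to 126 TPM in mutant libraries. *Phox2a*, *Hoxa5* and *Tfap2d* of that list were at 0 in all 10 libraries. *Slc17a6*, a vesicular glutamate transporter on both lists, averaged 3.45 ± 2.92 TPM (SD, n = 5) over WT mice and 8.87 ± 3.84 TPM (SD, n = 5) over mutants. *Spp1* had 10.2 ± 4.25 TPM (SD, n = 5) and 21.4 ± 2.74 TPM (SD, n = 5), without overlap, as had 1.22% of all genes tested. The other deep nuclei markers tested differed less. *Slc6a5* had 6.53 ± 2.88 TPM (SD, n = 5) and 9.13 ± 3.03 TPM (SD, n = 5), with overlap and an exact permutation p of 0.214. *Lmx1a* had a log2 fold change of 0.32. On the brainstem list, *Crhr1* (-0.03) and *En1* (-0.35) lay below 0. The part of these cells in the levels of *Cbln2*, *Cbln4* and *C1ql3* was not tested.

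Among the C1q-like ligands, *C1ql1* (ENSMUSG00000045532, chr11:102939264-102946688, minus strand, 2 exons) encodes the CF ligand of Bai3. WT libraries had 8.23, 6.90, 10.8, 10.4 and 3.63 TPM, and mutant libraries had 6.87, 5.35, 7.40, 7.46 and 6.34 TPM. The mutant values fell inside the WT range, which was set at its lower end by WT replicate 5. The log2 fold change was -0.17 (95% interval -0.81 to 0.47, SE 0.29, limma adjusted p = 0.892), -0.43 without WT replicate 5, -0.04 without WT replicate 3 and -0.05 without WT replicate 4. From the mixed list of brainstem, midbrain and inferior olive markers, *Tfap2d*, *Htr5b* and *Crh* were at or near 0. The sum of that list rests on its more abundant genes and cannot stand for them. *Tfap2d* was at 0 in all libraries. The highest *Htr5b* value was 0.32 TPM among WT mice and 0.65 TPM among mutants, and that of *Crh* was 0.37 TPM and 0.48 TPM. The list does not separate olive genes from the rest, so the amount of olive tissue in the libraries was not tested.

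*C1ql2* (ENSMUSG00000036907, chr1:120340582-120343174, plus strand, 2 exons), known from hippocampal mossy fibre synapses, was the weakest of the 3. WT libraries had 0.94, 1.03, 1.24, 0.74 and 5.27 TPM, and mutant libraries had 1.26, 1.47, 1.70, 1.296 and 0.50 TPM. WT replicate 5 was far above the other 9 libraries and mutant replicate 5 below them. The log2 fold change was -0.23 (95% interval -1.44 to 0.98, SE 0.55, limma adjusted p = 0.926), and it changed sign to 0.23 without WT replicate 5, so no direction can be given for this gene.

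*C1ql3* (ENSMUSG00000049630, chr2:13003457-13011806, minus strand, 2 exons), which encodes a further secreted ligand of Bai3, had the clearest difference between genotypes among the genes that reached the filter. WT libraries had 5.81, 7.03, 4.79, 5.94 and 2.62 TPM. Mutant libraries had 7.72, 7.48, 9.39, 8.77 and 6.09 TPM. Mutant replicates 1 to 4 lay above each WT library, and mutant replicate 5 lay below WT replicate 2 and above the other WT libraries. WT mice averaged 5.24 ± 1.67 TPM (SD, n = 5) and mutants 7.89 ± 1.27 TPM (SD, n = 5), which gave a log2 fold change of 0.64 (95% interval 0.033 to 1.24, SE 0.28). The unadjusted limma p was 0.0404 and the exact permutation p was 0.0159. Of all genes tested, 2.41% had an exact p under 0.05 with higher values in the mutant. The adjusted p was 0.779, so the difference did not pass the threshold over all genes. It was 0.41 without WT replicate 5, where the unadjusted limma p was 0.0681, and 0.27 with mitochondrial mRNA as a covariate. The unadjusted limma p was also above 0.05 without WT replicate 3 (0.0675), and without any 1 of mutant replicates 1 to 4 (0.0596 to 0.0893). Leaving out WT replicate 1, 2 or 4 or mutant replicate 5 kept it under 0.05 (0.0226 to 0.0428). *Gm37811*, a locus on the other strand of class TEC (the GENCODE class of loci whose transcript structure is still provisional), shares 1547 exon bases with *C1ql3*. It had 0 to 0.40 TPM in WT libraries and 0 to 0.49 TPM in mutant libraries, and the libraries were made with a directional kit, while the strand setting of the authors' alignment and quantification is not given in the sources used here.

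**Figure D2:**
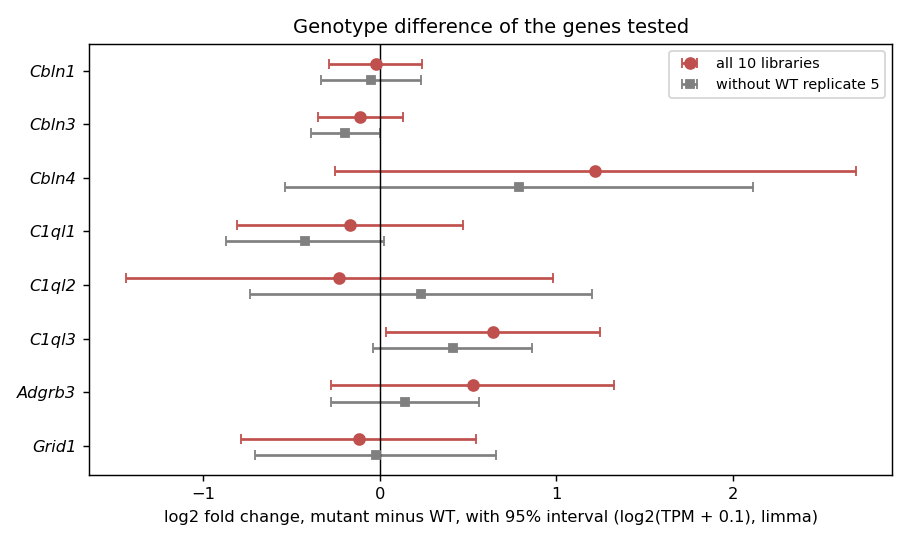
Log2 fold change (horizontal axis, mutant minus WT, log2(TPM + 0.1)) of the 8 genes tested, as points with 95% intervals from limma, for all 10 libraries (circles) and without WT replicate 5 (squares). With all libraries the interval of *C1ql3* lies above 0 (0.033 to 1.24) and those of the other 7 genes include 0, and without WT replicate 5 the value of *C1ql2* moves from -0.23 to 0.23.

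Set against each other within a library, which leaves out any scaling common to the library, the C1q-like genes are described by their shares, which were not tested. *C1ql3* held 38.8%, 47.0%, 28.4%, 34.7% and 22.7% of the summed TPM of the 3 genes in WT libraries 1 to 5. In the mutant libraries it held 48.7%, 52.3%, 50.8%, 50.0% and 47.1%. The ranges met without overlap, with 47.0% as the highest WT and 47.1% as the lowest mutant share. How often shares in other gene families separate in this way was not examined, and the *C1ql3* level itself overlapped between genotypes. The means were 34.3 ± 9.34% (SD, n = 5) and 49.8 ± 1.99% (SD, n = 5), and the WT mean without replicate 5 was 37.2%. *C1ql1* held 51.6 ± 13.1% (SD, n = 5) in WT and 42.5 ± 4.34% (SD, n = 5) in the mutant.

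The ratio of *C1ql3* to *C1ql1*, which leaves out *C1ql2*, was 0.69 ± 0.21 (SD, n = 5) in WT and 1.19 ± 0.16 (SD, n = 5) in the mutant. Its ranges of 0.44 to 1.02 and 0.96 to 1.40 overlapped by 1 library of each genotype. The sum of the 3 genes was 11.5 to 17.1 TPM in WT libraries and 12.9 to 18.5 TPM in mutant libraries. The ratio was likewise not tested.

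**Figure D3:**
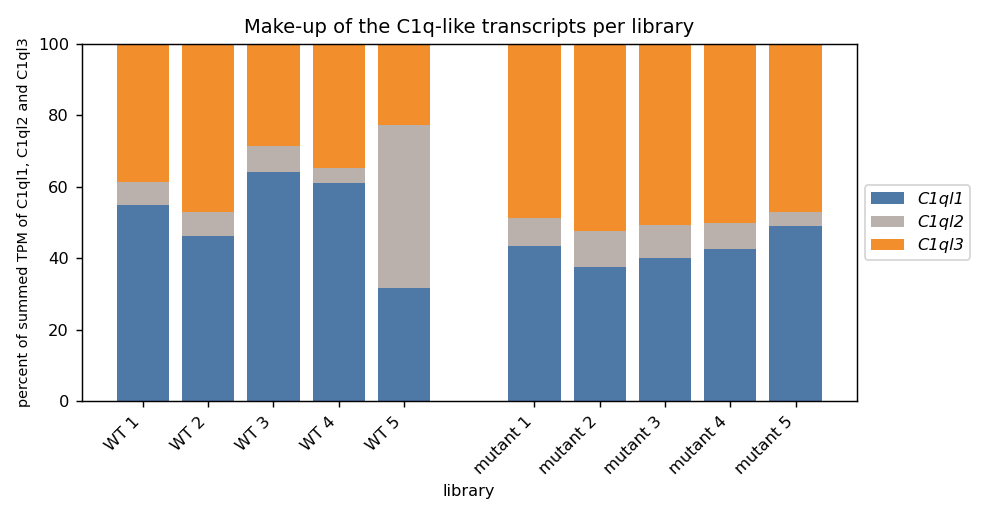
Share of *C1ql1*, *C1ql2* and *C1ql3* in their summed TPM (vertical axis, percent) in each WT and mutant library, as stacked bars. *C1ql3* (top segment) takes 22.7% to 47.0% in WT and 47.1% to 52.3% in the mutant, and *C1ql2* (middle segment) takes 45.8% in WT replicate 5.

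On the receptor side, *Adgrb3* (ENSMUSG00000033569, chr1:25067476-25829707, minus strand, 30 exons in its first-numbered transcript) encodes Bai3, an adhesion G protein-coupled receptor of Purkinje cells. WT libraries had 29.6, 26.7, 20.9, 24.3 and 6.61 TPM, and mutant libraries had 30.2, 37.0, 26.3, 30.4 and 18.7 TPM. The lowest library of each genotype was the one numbered 5, and 3 mutant libraries lay above the highest WT library. The log2 fold change was 0.53 (95% interval -0.27 to 1.33, SE 0.37, limma adjusted p = 0.779, exact permutation p = 0.246). It was 0.14 without WT replicate 5 and -0.07 with mitochondrial mRNA as a covariate. Of 15 Purkinje cell markers tested, 13 had log2 fold changes above 0, with a median of 0.13, which was 0.04 with mitochondrial mRNA as a covariate, and their part in the *Adgrb3* level was not tested.

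*Adgrb3* spans 762232 bp, and 19 loci of class TEC lie on its strand within its introns, sharing 0 of its exon bases. They were examined after their values had been seen. Their summed level was 17.5, 17.9, 11.6, 12.6 and 4.67 TPM in WT libraries and 20.9, 22.4, 16.7, 15.6 and 15.7 TPM in mutant libraries. The means were 12.9 ± 5.38 TPM (SD, n = 5) and 18.2 ± 3.14 TPM (SD, n = 5), a difference of 0.63 on the log2 scale with an exact permutation p of 0.0794. The lowest library was WT replicate 5, as for *Adgrb3*. Of all 19 loci, 13 had a higher mean in the mutant. Of 13 loci tested, 11 had log2 fold changes above 0, beside 56% of all genes tested. By limma 0 were called, and 3 had an unadjusted p under 0.05. Among these was *8030445P17Rik*, with at least 0.93 TPM in each mutant library and at most 0.76 TPM in any WT library. Mutant libraries alone thus sufficed for its entry into the test, which favours loci higher in the mutant. Values of the loci without WT replicate 5 are not given here. The sum was 51.8% to 70.6% of the *Adgrb3* level in WT and 51.5% to 84.0% in the mutant. TPM are scaled for length, so this percentage grows with the number of loci added and does not set intronic against exonic signal.

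**Figure D4:**
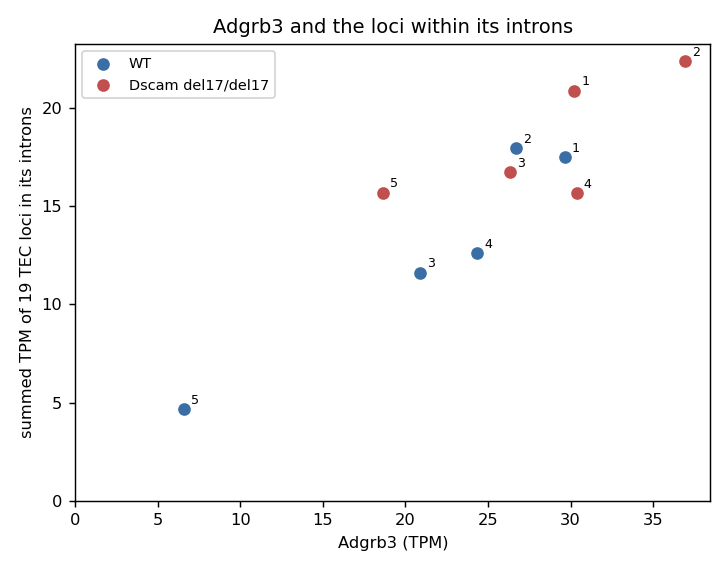
*Adgrb3* level (horizontal axis, TPM) and the summed level of 19 TEC loci within its introns (vertical axis, TPM) in each library, with replicate numbers. WT replicate 5 is lowest on both axes (6.61 and 4.67 TPM), and mutant replicate 2 is highest on both (37.0 and 22.4 TPM).

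*Grid1* (ENSMUSG00000041078, chr14:34820108-35583379, plus strand, 16 exons in its first-numbered transcript) encodes GluD1, a delta-type receptor that binds cerebellins. WT libraries had 8.28, 4.21, 7.10, 7.70 and 9.28 TPM, and mutant libraries had 8.87, 8.24, 8.57, 4.30 and 4.29 TPM. Near 4 TPM lay 1 WT and 2 mutant libraries, and the other 7 were between 7.10 and 9.28 TPM, so both genotypes held low and high libraries. WT replicate 5, low for most of the group, was the highest for *Grid1*. The log2 fold change was -0.12 (95% interval -0.79 to 0.54, SE 0.30, limma adjusted p = 0.927). A small noncoding RNA gene on the same strand, *Gm27617*, shares 91 exon bases with *Grid1* and had 0 to 4.25 TPM in WT libraries and 0 to 2.10 TPM in mutant libraries.

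In order of mean level over the 10 libraries the genes ran *Cbln1*, *Cbln3*, *Adgrb3*, *C1ql1*, *Grid1*, *C1ql3*, *C1ql2*, *Cbln4* and *Cbln2*. *Cbln1* was above *Cbln3* in 10 of 10 libraries, by 2.03 times in the means. *Cbln3* was above *Adgrb3* in 10 of 10, by 14.5 times. *C1ql1*, *Grid1* and *C1ql3* were not set apart. *C1ql1* was above *Grid1* in 5 of 10 libraries, and *Grid1* above *C1ql3* in 6 of 10, of which 4 were WT and 2 were mutant. *C1ql3* was above *C1ql2* in 9 of 10, the exception being a WT library. *C1ql2* was above *Cbln4* in 9 of 10 and *Cbln4* above *Cbln2* in 7 of 10, so the lowest places rest on values near 0.

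Similarity of pattern over the 10 libraries was measured as the mean absolute difference of log2 values after centring each gene on its own mean, and it carries what the libraries share as well as what the genes share. *Cbln1* and *Cbln3* differed by 0.11 on average, and 0.916% of coding genes were closer to *Cbln1* than *Cbln3* was. *C1ql1* and *Cbln3* differed by 0.26, with 4.79% of coding genes closer to *C1ql1*, and *Adgrb3* and *C1ql3* by 0.27, with 5.09% closer to *Adgrb3*. *Adgrb3* and *C1ql1* differed by 0.45, with 44.5% of coding genes closer to *Adgrb3*. Of all 13537 other coding genes, those nearest to *Cbln3* were *Ralgps1* (0.037) and *Adcy1* (0.042), against a median of 0.28 for all. *Cd2bp2* (0.064) and *Mien1* (0.070) were nearest to *Cbln1*. *Ubxn7* (0.076) and *Eif4e* (0.10) were nearest to *C1ql3*, and *Ppfia2* (0.12) and *Atxn3* (0.13) to *Adgrb3*. For *C1ql1* they were *Coq8b* (0.12) and *Nit1* (0.14), and for *Grid1* they were *Hebp1* (0.16) and *H2-DMa* (0.18). *C1ql2* (*Taf6l*, 0.29, and *Amz1*, 0.32) and *Cbln4* (*Zc3h8*, 0.39, and *Fam196a*, 0.41) had no gene as close.

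Known binding and signalling partners of these proteins were read from the same test as a list of 21 genes, of which 19 were tested. Of these, 7 had log2 fold changes above 0 and 12 below, with a median of -0.07, and 0 were called by limma, with 2 at an unadjusted p under 0.05. Without WT replicate 5, 5 lay above 0 and 14 below, with a median of -0.04, and 1 had an unadjusted limma p under 0.05. *Nrxn2* and *Nrxn3*, which encode presynaptic receptors of cerebellins, overlapped widely between genotypes. *Nrxn2* averaged 150 ± 67.9 TPM (SD, n = 5) over WT mice and 126 ± 54.0 TPM (SD, n = 5) over mutants, and *Nrxn3* had 16.8 ± 9.49 TPM (SD, n = 5) and 15.1 ± 9.15 TPM (SD, n = 5). The difference in *Nrxn2* changed sign with mitochondrial mRNA as a covariate (from -0.23 to 0.14), and that in *Nrxn3* changed from -0.11 to 0.17 without mutant replicate 4.

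The Bai3 relatives Bai1 and Bai2 were both more abundant than Bai3 at the RNA level. *Adgrb1* averaged 80.1 ± 17.8 TPM (SD, n = 5) over WT mice and 70.9 ± 11.8 TPM (SD, n = 5) over mutants, a log2 fold change of -0.16 that changed sign to 0.04 with mitochondrial mRNA as a covariate. *Adgrb2* had 133 ± 14.0 TPM (SD, n = 5) and 112 ± 16.3 TPM (SD, n = 5), with a log2 fold change of -0.25 (95% interval -0.51 to 0.005). *Elmo1*, whose protein links Bai receptors to Rac signalling, had 8.52 ± 3.93 TPM (SD, n = 5) and 17.8 ± 5.90 TPM (SD, n = 5), a log2 fold change of 1.09 with an exact permutation p of 0.0238. The netrin receptor *Unc5b* had 55.2 ± 8.54 TPM (SD, n = 5) and 45.8 ± 2.77 TPM (SD, n = 5), a log2 fold change of -0.26 with an exact permutation p of 0.0159. The limma adjusted p of *Adgrb2*, *Elmo1* and *Unc5b* was 0.779 for each. Their values without WT replicate 5 are not given here.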

How the data were processed

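RNA was extracted from cerebella at P21 with 1 library per mouse. Reads were trimmed (Trimmomatic 0.36) and aligned to the mouse build GRCm38 (HISAT2 2.2.0) by the authors, who deposited TPM per Ensembl gene computed by StringTie 1.3.6. The annotation release and the strand setting are not given in the sources used here. Counts from HTSeq 0.9.1 were not analysed here. Zeros are written in either of 2 forms, whose difference is not stated. The comparison used limma 3.58.1 under R 4.3.3, with no covariate and a variance trend, after the filter and added value given above. The limma code was tested on simulated data. Single genes were also compared by an exact two-sided permutation test over the 252 divisions of 10 libraries into 5 and 5, whose smallest p is 0.00794. Positions and types are from GENCODE M21, which lacked 191 identifiers. Sequences were read from the GENCODE M21 transcripts, placed on GRCm38 by that annotation and aligned with Biopython 1.88. Named genes were the 9 members, *Dscam*, *Nrxn2*, *Nrxn3*, *Adgrb1*, *Adgrb2*, the partners with the smallest p and the 2 coding genes most like each member tested, and 1 gene that this rule takes is not reported here. Marker genes and intronic loci were named after their values were seen. The members and lists were chosen with earlier results of these data known. Alternatives were other scalings, filters, added values and covariates, a replicate block and leaving out each library, and one more, without WT replicates 3 and 5, was chosen after seeing the data.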

Additional observations from a re-analysis of the deposited data

Results flagged for a closer look

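*C1ql2* stood out in a single WT library. WT replicate 5 had 5.27 TPM, against 1.24 TPM in the next highest WT library, a gap beyond Dixon's 95% critical value for 5 samples. The share of *C1ql2* in the summed TPM of the C1q-like genes was 45.8% in this library, against 7.35% in the next highest WT library, and passed the same limit. Both values rest on the same measurement. In all, 2 of 42 groups of 5 libraries were beyond the limit, and chance gives about 1 in 20.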

How the results depend on the processing

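Over 24 alternatives, 0 members and 0 partners were called, and *C1ql3* (0.27 to 0.76), *Cbln3* (-0.25 to -0.06), *C1ql1* (-0.44 to -0.04) and *Cbln4* (0.43 to 1.96, 23 alternatives, since it could not be tested under the filter of 1 TPM) kept their sign. *Cbln4* had passed the main filter mostly through mutant libraries, so its kept sign adds no support. The lowest adjusted p of *C1ql3* was 0.523 and the highest 0.919. For *Cbln2* the exact p was 0.00794 to 0.0397 over 14 alternatives. Of all genes, 4 were called without a variance trend and 0 to 1 when each library was left out in turn, the 1 call coming without mutant replicate 4. With mitochondrial mRNA as a covariate the log2 fold change was -0.067 for *Adgrb3*, 0.348 for *C1ql2* and 0.020 for *Grid1*, and the median of all genes tested moved to -0.10. With array weights *C1ql2* had 0.248 and the median of the members tested was 0.098. Without WT replicates 3 and 5 together, an alternative chosen after seeing the data, *C1ql2* had 0.339, *Grid1* 0.009 and *C1ql3* 0.319, and the median of the members was 0.031. Leaving out 1 library at a time gave -0.108 to 0.053 for *Cbln1*, -0.433 to 0.234 for *C1ql2* and -0.305 to 0.025 for *Grid1*. The sign of *Cbln1* changed without WT replicate 1 (0.031), WT replicate 4 (0.003) or mutant replicate 2 (0.053), that of *C1ql2* without WT replicate 5 (0.234) or mutant replicate 5 (0.038), and that of *Grid1* without mutant replicates 4 or 5 (0.025 each). The median of the members tested was then -0.090 to 0.059.

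The replicate numbers were checked for pairing, and deviations of same-numbered libraries correlated at 0.0079 to 0.098, so the numbers were not taken as pairs. With the replicate number as a block, 0 genes were called by limma and 1094 had an unadjusted p under 0.05, against 953 without it. The unadjusted limma p of *Adgrb3* was 0.0421 under the block, with an adjusted p of 0.717, and the block changed no call. The cause of these shifts was not tested. The unknown depth limits *Cbln2* and *Cbln4* most, whose values lie near 0.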
